A study of Populus davidiana with 6 samples.

Results

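The 200 aspen genes with the most listed transcripts were described in leaves of Populus davidiana, cultivar Seogwang9. For each of 40537 genes the FPKM of all its transcripts were summed in each library. Genes with at least 1 transcript marked known and a mean sum of at least 5 FPKM were ranked by the number of transcripts listed under the gene, ties by gene identifier. Of 15776 genes that met both conditions the first 200 (1.27%) were taken, and they are numbered here from no. 1, the gene with the most transcripts, to no. 200. Together they held 5095 listed transcripts, 4.51% of the 112919 in the files. The members were thus chosen by the number of listed transcripts and by the mean level in these same 6 libraries, and both are given as a description only.

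The air-dried group was 3 leaf libraries from plants that were lifted out of the medium, rinsed and exposed to air for 10 minutes or so, and the control group was 3 leaf libraries labelled as controls. All 6 came from the same cultivar, labelled drought tolerant, grown from internode culture to an age of about 6 weeks. Whether the controls were lifted and rinsed too, and whether samples of 1 group are different plants, is not stated in the labels, so that p-values rest on a spread between samples that may be technical. FPKM is the number of fragments assigned to a transcript, scaled by its length and by library size. Read numbers per library were not at hand. The deposited files pair no accession with a gene name or function, so no role can be given for any of these genes, and the labelled tissue could not be checked against marker genes.

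A gene can give several transcripts through different start sites, different ends and different splicing of its introns. In plants, introns that stay in the transcript are a common source of such forms, and stress is known to change splicing in leaves of many species. When transcripts are assembled from short reads, most reads of such a gene fit several forms at once, and a statistical model divides them between the forms. The total of a gene does not depend on that division to the same degree as the level of each form does.

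The 200 genes had 19 to 64 transcripts, with a median of 23, while the other 12920 eligible genes with at least 2 transcripts had a median of 4. The last members had 19 transcripts, and so did the next genes in the order, which the tie rule left out. Of 36 genes with 19 transcripts 5 were taken. The last member but 1, on the plus strand of chromosome 1 (43214187 to 43326457), had 23.5, 17.8 and 20.3 FPKM in the air-dried libraries and 15.3, 19.3 and 19.3 FPKM in the controls. The first gene left out, on the minus strand of chromosome 1 (27746858 to 27765293), had 22.9, 22.0 and 24.3 FPKM in the air-dried libraries and 18.0, 18.5 and 22.3 FPKM in the controls. Coordinates are printed as deposited, since no genome build is named for them. The accessions are those of a Populus reference annotation, so places and spans may differ in the species sampled.

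Of the 5095 transcripts, 565 were marked known and 4530 were assembled from the reads. In 111 of the 200 genes all known transcripts belonged to a single reference gene, and in 83 of these 111 only 1 transcript was known. The other 89 genes (44.5%) were joined loci: they held known transcripts of 2 to 11 reference genes, with a median of 3. Joined loci made up 34.5% of the next 200 genes by transcript number and 12.5% of the other eligible genes with at least 2 transcripts. In each of the 89 joined loci at least 1 transcript spanned the known transcripts of at least 2 reference genes, and such spanning transcripts held a median of 50.2% of the locus total. They were present in 100% of the joined loci of the next 200 genes and in 97.8% of those of the other genes. Their median share there was 26.7% and 44.7%. A joined locus thus counts as 1 gene here although the reference lists several, and its total is a sum over all of them. The last member but 1 and the first gene left out, given above, were joined loci of 5 and 2 reference genes.

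The 200 genes covered more of the genome than other genes. Their median span was 13187.5 bp, from 2902 to 371269 bp. In the next 200 genes it was 9946.5 bp, and in the other genes with at least 2 transcripts 4357 bp. Joined loci had a median span of 27933 bp and single-reference genes 8151 bp. Another listed gene, on either strand, overlapped 63 of the 200 (31.5%). This share was 27.5% in the next 200 and 13.2% in the other genes with at least 2 transcripts. No strand setting of the counting is stated, and reads of genes that overlap could have gone to either. Most transcripts differed from their neighbours inside the gene and not at its ends: 3575 of 5095 (70.2%) shared both start and end with another transcript of the same gene. In 27 genes all transcripts had the same start.

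Few of the listed transcripts carried most of the signal. A mean share of at least 5% of the gene total was reached by a median of 5 transcripts per gene, and 5 transcripts (median) were enough for 80% of the total. Mean shares under 1% were found for 3015 of the 5095 transcripts (59.2%). The effective number of transcripts, which is the number of equally abundant forms that would give the same diversity of shares (the exponential of the Shannon entropy), had a median of 5.27 over the 200 genes, against 1.89 in the other genes with at least 2 transcripts. In the next 200 genes the median was 4.24. The effective number of the 200 genes ranged from 1.82 to 16.8. Across the 200 genes it followed the number of listed transcripts only loosely (Spearman rho = 0.21, Pearson r = 0.27, n = 200 genes, which share their libraries and are not replicates).

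**Figure D1:**
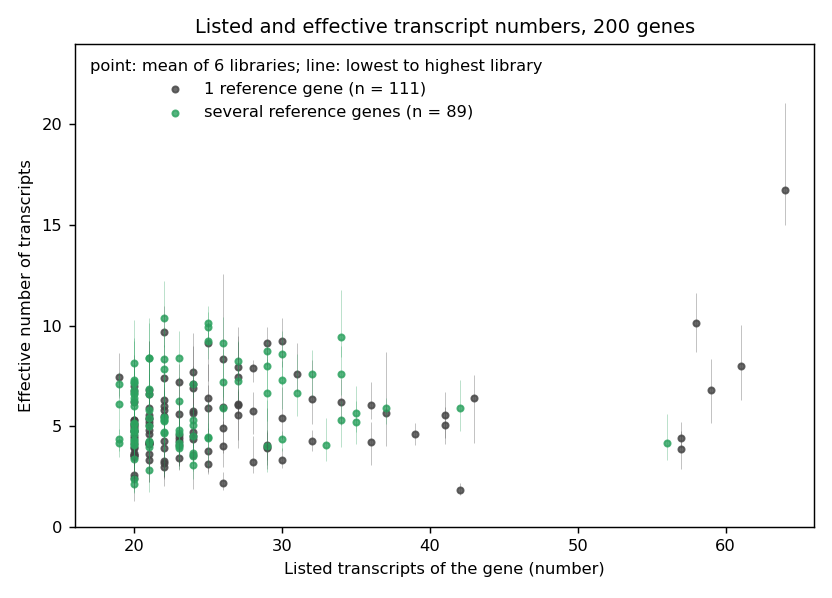
Effective number of transcripts (vertical axis, mean of 6 libraries as a point, lowest to highest library as a line) against the number of listed transcripts (horizontal axis) for the 200 genes, with single-reference genes in dark grey and joined loci in green. Most points lie between 3 and 10 whatever the listed number, and gene no. 1, with 64 transcripts, stands highest at 16.8.

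Gene no. 1, on the plus strand of scaffold 20 (202947 to 211425), had 64 transcripts, of which 63 were assembled, and was the most even of all. Its effective number was 16.4, 15.1 and 16.6 in the air-dried libraries and 21.05, 16.4 and 15.03 in the controls. It took 18 transcripts to reach 80% of its total. Gene no. 4, on the minus strand of chromosome 10 (12265307 to 12279027), had 58 transcripts and an effective number of 8.75, 10.5 and 10.6 in the air-dried libraries and 11.6, 8.70 and 10.7 in the controls. The joined locus no. 117, on the minus strand of chromosome 5 (3029667 to 3064309), had only 22 transcripts and yet a mean effective number of 10.4.

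At the other end a long list held a single dominant form. Gene no. 9, on the plus strand of chromosome 17 (5042092 to 5080270), had 42 transcripts, and 1 of them, spanning 5072345 to 5080270, held 86.8%, 77.6% and 85.2% of the total in the air-dried libraries and 84.1%, 86.1% and 82.7% in the controls. Its effective number averaged 1.82. Gene no. 60, on the plus strand of chromosome 9 (10594162 to 10610305), had 26 transcripts, and its leading form held 75.3%, 71.6% and 64.3% in the air-dried libraries and 65.5%, 70.4% and 73.9% in the controls. In both genes the leading transcript was assembled and covered only the 3′ part of the span.

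The known transcript was seldom the main form. The leading transcript by mean share was known in 34 of the 200 genes (17%). This was so in 26.5% of the next 200 genes and in 58.6% of the other genes with at least 2 transcripts. Known transcripts together held a median of 5.46% of the total, against 12.6% in the next 200 and 55.6% in those other genes. In 57 of the 200 genes their mean share was under 0.01%. Genes no. 1 to no. 6 all belonged to these. The rank of the best known transcript within its gene had a median of 5 over the 200 genes. The rule required only that a known transcript be listed, not that it be expressed.

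An exception was gene no. 44, on the plus strand of chromosome 1 (4808036 to 4815668), with 28 transcripts of which 20 were known. Its total was 243, 248 and 266 FPKM in the air-dried libraries and 262, 280.4 and 282 FPKM in the controls, and known transcripts held a mean of 90.2% of it. The same known form led in all 6 libraries, with shares of 31.5%, 39.5% and 36.4% in the air-dried libraries and 29.6%, 29.04% and 36.3% in the controls. Gene no. 160, on the minus strand of chromosome 11 (14141050 to 14146189), was the most abundant of the 200. Its total was 647, 818 and 871 FPKM in the air-dried libraries and 821, 899.96 and 984 FPKM in the controls. The groups overlapped, and so did the shares of its known transcript, with 36.7%, 52.5% and 47.9% in the air-dried libraries and 36.3%, 1.6e-27% and 37.2% in the controls. The joined locus no. 134, on the plus strand of chromosome 14 (7681769 to 7689677), had 234, 246 and 271 FPKM in the air-dried libraries and 285, 291 and 319.6 FPKM in the controls. Its groups did not overlap, but its log2 fold change of -0.26 (SE 0.0986) did not pass the limma test (adjusted p = 0.164).

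The comparison of gene totals asked which of these genes differ after the short drying. Of the 200 genes 6 rose (3.0%) and 2 fell (1.0%) in the air-dried leaves, where 5.60% of all 22356 genes tested rose and 7.44% fell, together 13.0%. Calls are those of limma on log2(FPKM + 1) over all genes tested, with a Benjamini-Hochberg adjusted p under 0.05. Both shares lay below the background. The background takes in genes from a mean of 1 FPKM, and among the other eligible genes with at least 2 transcripts 5.20% rose and 6.70% fell. Without single libraries 3 to 5 genes rose (3 without air-dried 3, control 1 or control 2) and 0 to 2 fell (0 without control 2, 1 without air-dried 2, control 1 or control 3). Of all genes tested 6.62% to 8.91% were then called in either direction. Without adjustment, 23 genes (11.5%) had a p under 0.05 and a higher level, against 12.6% of all genes, and 10 (5.0%) a lower one, against 14.5%. In leaves measured in bulk, fewer cells of a type and less RNA per cell cannot be told apart.

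The totals of the 200 genes moved little, and more often up than down. The air-dried range lay wholly above the control range in 30 genes (15.0%, against 15.9% of all genes tested), and below them in 11 (5.5%, against 16.8%). The log2 fold change was above 0 in 130 of the 200 (65.0%). This share was 54.5% in the other eligible genes with at least 2 transcripts and 55.5% in the next 200 genes. The median was 0.064, against 0.045 in those next 200, 0.021 in all eligible genes and 0.0080 in all genes tested. A change of at least 0.5 on the log2 scale in either direction was found in 7 genes (3.5%), against 16.1% of all genes, and a change of at least 1 in 1 gene (0.5%), against 5.14%. Among the other eligible genes with at least 2 transcripts, which like the 200 average at least 5 FPKM, these shares were 9.31% and 1.88%. The median size of the log2 change, sign ignored, was 0.108 in the 200 genes, 0.151 in all eligible genes and 0.175 in all genes tested. The standard deviation within groups, on the same scale, had a median of 0.140 in the 200 genes and 0.143 in all genes tested. In all eligible genes it was 0.128, and in the other eligible genes with at least 2 transcripts 0.125. In the next 200 genes it was 0.136. Among the 200 it was 0.161 in joined loci and 0.133 in single-reference genes. The 200 genes were thus somewhat more variable within groups than other eligible genes, but close to the next 200.

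**Figure D2:**
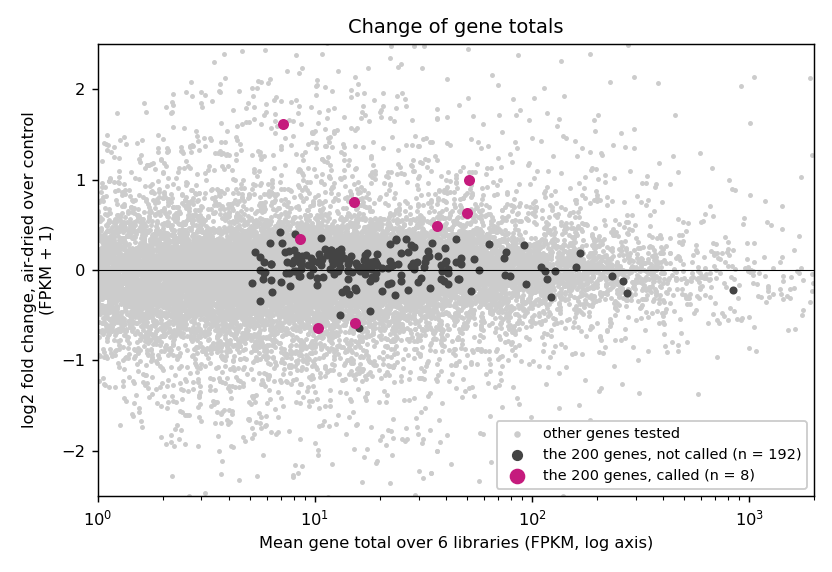
Log2 fold change of the gene total, air-dried over control (vertical axis, log2(FPKM + 1) scale, shown from -2.5 to 2.5), against the mean total over 6 libraries (horizontal log axis, FPKM), with the 8 called genes of the 200 in pink, the 192 not called in dark grey and the other genes tested in light grey (genes beyond the axes are not drawn). The 200 genes lie close to 0, and no. 171 stands highest at 1.61.

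Called genes became fewer with transcript number along the whole range of eligible genes. Of 2656 genes with 1 transcript 22.1% were called, of 2827 with 2 transcripts 16.02%, of 4423 with 3 or 4 transcripts 12.7%, of 3907 with 5 to 8 transcripts 10.1%, and of 1732 with 9 to 18 transcripts 7.45%. Of all 231 genes with 19 to 64 transcripts, including those that the tie rule left out, 10 (4.33%) were called. The median size of the log2 change was 0.118 in the class with the most transcripts and 0.215 in genes with 1 transcript. These shares are a description. Level, span and spread within groups also differ between the classes, and their part in the result was not tested.

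Of the 8 called genes 6 were joined loci, and 2 were single-reference genes. The locus XLOC_017032 (no. 171), on the minus strand of chromosome 17 (1592013 to 1872050), had 11.2, 11.7 and 10.9 FPKM in the air-dried libraries and 2.70, 3.51 and 2.86 FPKM in the controls. The groups lay far apart, with means of 11.3 ± 0.456 FPKM in air-dried leaves and 3.02 ± 0.425 FPKM in controls (SD, n = 3 each). Its log2 fold change of 1.61 (SE 0.0986, limma adjusted p = 0.000533) was the largest of the 200. The gene POPTR_0014s08990.r1 (no. 133), on the plus strand of chromosome 14 (6642986 to 6648925), had 67.2, 66.6 and 72.3 FPKM in the air-dried libraries and 33.3, 33.8 and 35.04 FPKM in the controls. The groups did not overlap, with means of 68.7 ± 3.17 FPKM in air-dried leaves and 34.03 ± 0.913 FPKM in controls (SD, n = 3 each), and the log2 fold change was 0.99 (SE 0.0676, limma adjusted p = 0.000717).

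Rises of the other 4 genes were smaller. The joined locus no. 63, on the minus strand of chromosome 11 (1721401 to 1853833), had 21.8, 17.97 and 17.9 FPKM in the air-dried libraries and 9.81, 11.3 and 11.8 FPKM in the controls (log2 fold change 0.76, limma adjusted p = 0.00922). Gene no. 111, a single-reference gene on the plus strand of chromosome 2 (4270400 to 4277002), had 51.1, 63.6 and 68.95 FPKM in the air-dried libraries and 34.8, 37.99 and 44.5 FPKM in the controls (0.63, limma adjusted p = 0.0397). The joined locus no. 181, on the minus strand of chromosome 3 (8233992 to 8270447), had 41.4, 48.1 and 39.5 FPKM in the air-dried libraries and 32.05, 27.2 and 31.6 FPKM in the controls (0.49, limma adjusted p = 0.0341). No groups overlapped among these. The smallest rise called was that of no. 122, a joined locus on the plus strand of chromosome 1 (11944848 to 11970668), with 9.46, 9.90 and 9.58 FPKM in the air-dried libraries and 6.82, 7.17 and 8.22 FPKM in the controls (0.34, limma adjusted p = 0.0499). Of 17 alternative settings no. 122 kept its call in 3 and no. 181 in 5, and of 18 no. 111 kept it in 10 and no. 63 in 15.

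Both falls were joined loci of chromosome 17. The locus XLOC_016475 (no. 93), on the plus strand (3996349 to 4257666), had 7.00, 6.99 and 9.68 FPKM in the air-dried libraries and 11.5, 13.1 and 13.6 FPKM in the controls, a log2 fold change of -0.64 (SE 0.139, limma adjusted p = 0.0342). The locus XLOC_017262 (no. 172), on the minus strand (6193877 to 6323298), had 12.6, 12.7 and 10.8 FPKM in the air-dried libraries and 20.7, 17.65 and 17.5 FPKM in the controls, a log2 fold change of -0.59 (SE 0.101, limma adjusted p = 0.0160). The groups overlapped in neither locus. Of 18 alternative settings no. 93 kept its call in 10 and no. 172 in 14, and neither was called without control 2. Other listed genes overlapped no. 93 (9 genes), no. 63 (6 genes), no. 172 (1 gene) and no. 171 (40 genes), while none overlapped no. 111, no. 122, no. 133 or no. 181. Whether near-identical copies share reads inside these loci is not known here.

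**Figure D3:**
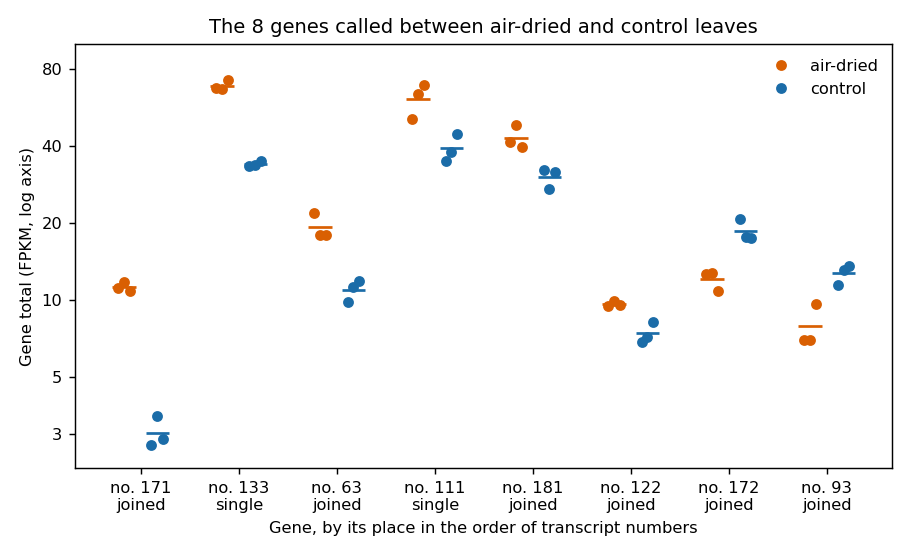
Gene totals (vertical log axis, FPKM) of the 8 called genes in each library, air-dried in orange on the left of each pair and control in blue on the right, with bars at the group means and genes in order of falling log2 fold change. The values of the 2 groups do not overlap in any of the 8, and the widest gap is that of no. 171, with 10.9 to 11.7 FPKM against 2.70 to 3.51 FPKM.

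In no. 171, no. 181, no. 93 and no. 172 most of the signal lay in transcripts that run across several reference genes. Their changes therefore cannot be assigned to 1 of these genes. Such spanning transcripts held a mean of 80.3% of the total in no. 171, 80.02% in no. 181, 72.5% in no. 93, 59.97% in no. 172, 32.8% in no. 63 and 18.97% in no. 122. Each transcript is named after 1 reference gene, and a single name held 99.4% of the total in no. 122 and in no. 181. In no. 122 transcripts of that name had 9.14, 9.90 and 9.58 FPKM in the air-dried libraries. In the controls they had 6.82, 7.17 and 8.22 FPKM, without overlap. In no. 171 an assembled transcript from 1592013 to 1856170 had 4.37, 5.37 and 4.21 FPKM in the air-dried libraries and 0.711, 0.832 and 0.653 FPKM in the controls. It held 39.2%, 45.7% and 38.8% of the locus in the air-dried libraries and 26.3%, 23.7% and 22.8% in the controls. Its share was higher in all 3 air-dried libraries but did not pass the test over all transcripts (limma adjusted p = 0.851).

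In no. 93 an assembled transcript from 4106458 to 4177418 led in all 6 libraries, with 3.23, 3.60 and 4.64 FPKM in the air-dried libraries and 6.20, 7.51 and 7.27 FPKM in the controls. In no. 181 the leading transcript covered the whole locus and had 5.44, 14.2 and 11.98 FPKM in the air-dried libraries and 4.98, 5.40 and 10.2 FPKM in the controls, with overlap. Some known transcripts, which lie within a single reference gene, also differed without overlap. The known transcript from 1734606 to 1737569 in no. 63 had 3.95, 3.77 and 4.24 FPKM in the air-dried libraries and 2.13, 2.55 and 2.79 FPKM in the controls. The known transcript from 6321708 to 6323298 in no. 172 had 2.09, 3.20 and 2.28 FPKM in the air-dried libraries and 4.33, 3.73 and 3.59 FPKM in the controls. Other known transcripts overlapped between the groups. The one from 1795694 to 1796839 in no. 63 had 5.46, 3.46 and 0.433 FPKM in the air-dried libraries and 1.62, 2.72 and 2.28 FPKM in the controls. The known transcript of no. 111 had 0.422, 23.2 and 19.4 FPKM in the air-dried libraries and 1.39, 2.73 and 17.3 FPKM in the controls. Levels of single transcripts were not tested.

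The genes with the longest lists did not pass the test. Gene no. 1 had 25.4, 23.1 and 30.6 FPKM in the air-dried libraries and 18.3, 21.1 and 22.5 FPKM in the controls, without overlap (log2 fold change 0.34, SE 0.129, limma adjusted p = 0.162). Gene no. 3, on the minus strand of chromosome 8 (4209838 to 4220383), had 14.04, 14.1 and 14.6 FPKM in the air-dried libraries and 10.7, 11.7 and 13.7 FPKM in the controls, also without overlap (0.23, SE 0.0984, limma adjusted p = 0.203). In the remaining genes of the first 6 the groups overlapped. These were no. 2 on chromosome 3 (11781983 to 11788832, minus strand), no. 4, no. 5 on chromosome 1 (6844773 to 6860019, plus strand) and no. 6 on chromosome 9 (6630819 to 6643824, plus strand). Their log2 fold changes lay between 0.068 and 0.16.

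The shares of single transcripts were compared next, since a gene may keep its total and change its forms. No transcript share passed the test, neither among the 1024 tested transcripts of the 200 genes nor among all 33066 tested (0%; limma on the arcsine square root of the share, for transcripts with a mean share of at least 5%). At an unadjusted p under 0.05 there were 38 of 1024 (3.71%), against 3.96% of all tested. Shares did not overlap between the groups in 88 of the 1024 (8.59%), against 8.60% of all tested in genes with a known transcript. Both shares were close to the background. In none of the 200 genes did the 3 air-dried libraries share 1 leading transcript and the 3 controls another, a pattern found in 0.274% of genes with at least 2 transcripts.

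The largest differences in share without overlap are given as values, since none was called. In no. 141, on the minus strand of chromosome 2 (21414041 to 21429062), an assembled transcript over the whole span held 68.3%, 13.1% and 45.0% of the total in the air-dried libraries and 6.06%, 1.43e-13% and 0.0993% in the controls (limma adjusted p = 1). In no. 45, on the plus strand of chromosome 13 (1660278 to 1664478), the known transcript held 2.45e-13%, 13.4% and 0.000349% in the air-dried libraries and 40.1%, 29.3% and 33.6% in the controls (limma adjusted p = 0.81). The joined locus no. 189, on the minus strand of chromosome 6 (6516802 to 6609908), had an assembled transcript from 6516802 to 6566339 with 35.4%, 17.1% and 23.7% in the air-dried libraries. In the controls it held 2.98%, 1.33e-06% and 2.76e-22% (limma adjusted p = 0.66). In no. 47, on the plus strand of chromosome 1 (9099956 to 9108800), an assembled transcript held 39.5%, 32.5% and 9.08% in the air-dried libraries and 8.05%, 0.0115% and 3.1e-05% in the controls (limma adjusted p = 1). The totals of all 4 genes overlapped between the groups.

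Measures that sum up a whole gene did not separate the groups either. The effective number was called in none of the 200 genes and in none of 13209 genes tested (0%, limma), and at an unadjusted p under 0.05 in 10 of the 200 (5.0%), against 4.93% of all. The median effective number over the 200 genes was 5.23, 5.21 and 5.27 in the air-dried libraries and 5.39, 5.17 and 5.27 in the controls. The share held by assembled transcripts was called in none of the 200 genes, against 0.0156% of 12826 genes tested with limma, and at an unadjusted p under 0.05 in 9 (4.5%), against 4.16% of all. Its median was 97.97%, 97.3% and 96.2% in the air-dried libraries and 98.5%, 97.9% and 94.3% in the controls.

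The division of a gene total between its transcripts was far less steady than the total itself. Over the 6 libraries the coefficient of variation of the total had a median of 11.6% in the 200 genes and 11.7% in the other genes with at least 2 transcripts. For the leading transcript it was 28.6% in the 200 genes and 17.5% in those others. In the next 200 genes by transcript number, with 15 to 19 transcripts, the median was 28.2% for the leading transcript and 11.6% for the total. In 64 of the 200 genes (32.0%) the same transcript led in all 6 libraries, against 39.5% of the next 200 and 67.4% of the others. In 73 genes 2 transcripts took turns, in 37 genes 3, in 18 genes 4, in 6 genes 5, and in 2 genes each library had a leading transcript of its own. These 2 were no. 25, a gene on chromosome 1 (46286217 to 46293132), and no. 30, on chromosome 10 (16320305 to 16333302).

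A pair of libraries can be compared by the share of a gene total that would have to be moved between its transcripts to turn one into the other, which is the sum of the positive differences in share. Over the 200 genes the median of this moved share was 25.7% to 34.8% in the 15 pairs of libraries, against 8.08% to 12.6% in the other genes with at least 2 transcripts. Pairs of 1 air-dried and 1 control library gave 25.7% to 34.4%, and pairs within a group gave 28.4% to 34.8%. Pairs across the groups thus did not lie above pairs within them. Among the 200 genes the moved share was larger across groups than within them in 79 (39.5%). This was so in 39.5% of the next 200 and in 35.9% of the other genes with at least 2 transcripts. Averaged over pairs from the same library set (sets are given below), the moved share was smaller in genes with higher totals (Spearman rho = -0.45, Pearson r = -0.25, n = 200 genes, a description).

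A division of the libraries that the labels do not name was seen in the pairs. Air-dried 2, air-dried 3 and control 3 formed 1 set, called set B here, and air-dried 1, control 1 and control 2 the other, set A. Pairs from different sets had a median moved share of 31.2% to 34.8% and pairs from the same set 25.7% to 30.8%, with no overlap. The sets were recognised from these transcript values, so the difference carries no test. Of the 6 pairs within a group 4 came from different sets, and of the 9 pairs across groups 5 did. The part of this in the comparison of moved shares between groups was not tested. With the set as a term in limma, 0 of 33066 shares and 0 of 13209 effective numbers were called between the groups. Gene totals with this term are given below. Tested shares did not overlap between the sets in 217 of the 1024 transcripts (21.2%). This share was 20.2% in the next 200 genes and 25.99% in the other genes with at least 2 transcripts. Counted by gene, 119 of the 200 (59.5%) had such a transcript, against 52.0% of the next 200 and 39.0% of those others. The moved share was larger across than within sets in 67.5% of the 200, 63.0% of the next 200 and 60.4% of those others. In 6 of the 200 genes (3.0%) each set had a leading transcript of its own, against 2.89% of the other genes with at least 2 transcripts.

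**Figure D4:**
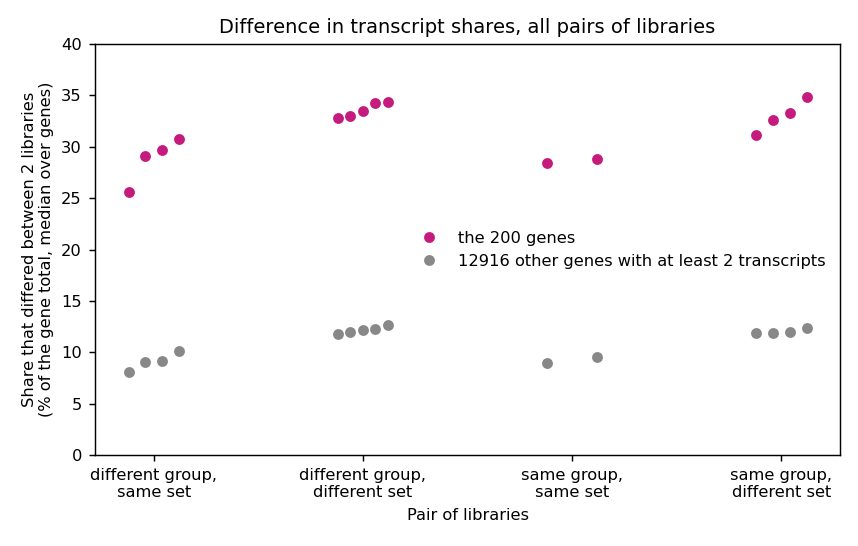
Median share of the gene total that differed between 2 libraries (vertical axis, %) for the 15 pairs of libraries, sorted by whether the pair came from the same group and the same library set, for the 200 genes in pink and for the other genes with at least 2 transcripts in grey. The pink points lie between 25.7% and 34.8%, and pairs from different sets lie above pairs from the same set.

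The plainest case was the joined locus no. 165, on the minus strand of chromosome 13 (13169494 to 13366008), whose total was steady at 102.5, 118.4 and 120.8 FPKM in the air-dried libraries and 118.5, 111.7 and 113.2 FPKM in the controls. A pair of assembled transcripts of this locus had the same start and end (13245314 to 13348566). One of them held 86.6%, 82.1% and 77.7% of the total in air-dried 2, air-dried 3 and control 3, and between 0.00733% and 0.0176% in the 3 libraries of set A. The other held between 0.00194% and 0.00540% in the libraries of set B, and 76.04%, 75.3% and 70.3% in air-dried 1, control 1 and control 2. Each form was thus near 0 in the libraries where the other led, in both groups, while the totals of the sets overlapped.

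A further 3 genes were picked for their differences between the sets after the values were seen. In no. 19, a joined locus on the minus strand of scaffold 30 (7572 to 31420), a transcript from 21107 to 31099 held 46.5%, 46.9% and 43.4% in the libraries of set B and at most 0.000469% in set A. A transcript from 21107 to 31420 held at most 0.00199% in set B and 39.9%, 32.8% and 33.7% in set A. Its total was 30.96, 32.3 and 36.2 FPKM in the air-dried libraries and 30.3, 31.03 and 32.1 FPKM in the controls. In no. 89, on the plus strand of chromosome 1 (28587328 to 28595016), a transcript held 64.5%, 19.8% and 58.9% in set B and at most 0.000305% in set A. In no. 183, on the minus strand of chromosome 4 (20882342 to 20898564), a transcript held at most 22.2% in set B and 48.3%, 39.8% and 71.8% in set A.

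The division was unsteady in some of the called genes too. In no. 133 the leading transcript, an assembled form from 6643008 to 6648925, held 65.5%, 35.3% and 31.03% in the air-dried libraries and 34.5%, 54.8% and 78.5% in the controls. A form that starts 1 base further left (6643007) held 1.38%, 2.07% and 42.7% in the air-dried libraries and 24.9%, 0.418% and 0.115% in the controls. Yet the log2 fold change of the total was 0.97 within set B and 0.98 within set A. In no. 111 the known transcript held 36.4%, 28.2% and 38.9% in the libraries of set B and 0.825%, 3.99% and 7.20% in set A. The log2 fold change of its total was 0.56 within set B and 0.48 within set A. No. 93 was steadier, with a leading share of 46.1%, 51.6% and 48.0% in the air-dried libraries and 54.0%, 57.3% and 53.6% in the controls.

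**Figure D5:**
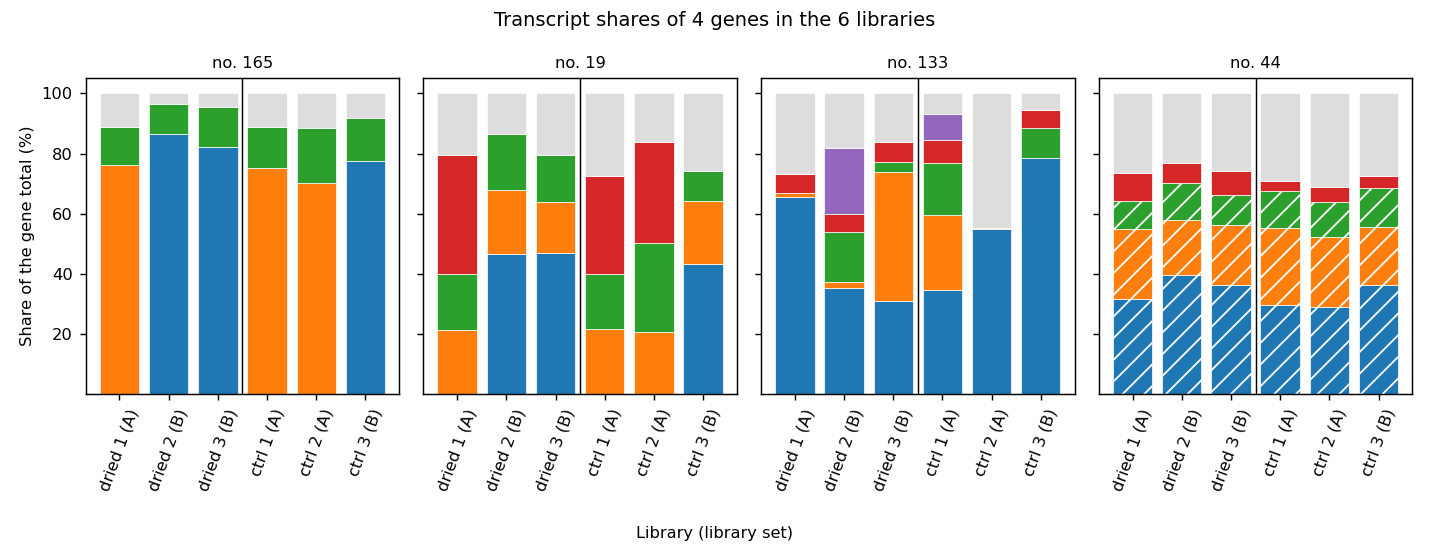
Shares of the gene total (vertical axis, %) of the transcripts with a mean share of at least 5% in genes no. 165, 19, 133 and 44, for each library (horizontal axis, with its library set in brackets; air-dried libraries left of the line, controls right of it), 1 colour per transcript within a panel, hatched where the transcript was marked known and light grey for all other transcripts. In no. 165 and no. 19 the colours change with the set, in no. 133 from library to library, and in no. 44 they stay alike.

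The other called totals were also compared within the sets, with the spread taken from 1 limma model of all 6 libraries that had a mean for each group in each set. Set B has control 3 as its only control and set A has air-dried 1 as its only air-dried library, and each is assumed to vary like the others. The log2 fold change of no. 171 was 1.67 within set B and 1.57 within set A. For no. 63 it was 0.56 and 0.99, for no. 181 0.45 and 0.47, and for no. 122 0.22 and 0.39. For no. 93 it was -0.66 within set B and -0.73 within set A, and for no. 172 -0.54 and -0.56. All 8 kept their direction in both sets, but with no overlap between the groups no other outcome was possible. Only the sizes of the changes carry information here. With the set as a term, 6 of the 8 were also called, and no. 181 (limma adjusted p = 0.0592) and no. 122 (limma adjusted p = 0.0790) were not.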

How the data were processed

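The deposited values were FPKM per transcript, 1 per library, per the file headers. The submitters' processing notes name Cufflinks, TopHat and FastQC, with versions, build, annotation and strand setting not given in the sources used here; 100 bp read pairs came from poly(A) RNA, per the labels' protocols. Shares and totals were computed here from those values. Totals with a mean of at least 1 FPKM were tested as log2(FPKM + 1), unscaled, with limma 3.58.1 (lmFit, eBayes with trend) in R 4.3.3, two-sided, Benjamini-Hochberg over the whole table, threshold 0.05. Shares, the effective number and the assembled share were fitted the same way in genes whose total averaged 5 FPKM or more. The fits were tested on simulated data. Fold changes on this scale understate the change of low genes. Depth is unknown, so no counting interval is given; an FPKM of 0 can be a failed estimate.

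The 200 genes, the measures and the alternatives were chosen with earlier results of these data known. Named genes were: the 6 with the most transcripts, the 3 most abundant, called genes without overlap (up to 8 each way), the 4 largest share differences without overlap where no share was called, genes whose leading transcript differs between groups (none), the 3 most and 3 least even, and those at the threshold. With no names in the files, accessions are printed for 2 rises and 2 falls. Functional gene lists and cell type markers could not be applied. Same-numbered libraries were not treated as pairs. Alternatives changed the pseudocount, filter, scaling, trend, block, library set, transcripts summed and libraries.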

Additional observations from a re-analysis of the deposited data

How the results depend on the processing

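Member counts are small, so single genes move them. With known transcripts only, which 92 of the 200 genes could be tested on, 0 genes were higher and 1 lower in limma. Of all 16907 genes tested so, 8.40% were called. No call was shared with the sums over all transcripts: of the 8 called genes 3 could not be tested and 5 lost their call (limma adjusted p = 0.079 to 0.82). Within set B and within set A, with 1 library in 1 group, all 8 called genes kept their direction. Since their groups do not overlap, this was fixed in advance. Without single libraries 3 to 5 were higher and 0 to 2 lower, where 6.62% to 8.91% of all genes tested were called. The higher ones numbered 3 without air-dried 3, without control 1 or without control 2; the lower ones numbered 1 without air-dried 2, without control 1 or without control 3, and 0 without control 2. No. 133 kept its call in 17 of 17 alternatives and no. 171 in 17 of 18 (known transcripts only, adjusted p = 0.112); no. 63 did in 15 of 18, no. 172 in 14, no. 93 and no. 111 in 10, no. 181 in 5 of 17 and no. 122 in 3. Without a minimum mean share 2 transcripts of the 200 genes were called, where 24 of all 70670 tested (0.034%) were. Assembled shares were called in 0 to 1 of the 200 genes without single libraries, against 0.0702% to 0.273% of all 12826 tested. A replicate block left 4 higher and 2 lower (6 of the 8), where 9.49% of all genes tested were called. Same-numbered libraries deviated together at 0.187, -0.0961 and 0.292, so that pairing was not established. Sums of transcripts by length were not run, since the files give spans and not lengths.

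Of genes that were not called, some log2 fold changes turned sign. Within set B they were -0.14 (no. 4), -0.23 (no. 47), -0.0085 (no. 60), 0.020 (no. 141), 0.079 (no. 165), -0.021 (the last member but 1) and -0.081 (no. 200), and within set A 0.10 (no. 45). With the set as a term they were -0.019 (no. 47) and -0.027 (no. 200), and with quantile normalization -0.011 (no. 200). With known transcripts only they were 2.87 (no. 160, -0.22 with all transcripts), 0.44 (no. 165), -0.29 (no. 189) and -0.0071 (no. 200). Assembled transcripts held 100% of the total of no. 160 in control 2 and 47.5% to 63.7% in the other libraries. Leaving out single libraries gave -0.048 to 0.20 (no. 4), -0.019 to 0.18 (no. 5), -0.16 to 0.079 (no. 45), -0.070 to 0.17 (no. 47), -0.17 to 0.12 (no. 141), -0.054 to 0.063 (no. 165), -0.0067 to 0.20 (no. 189) and -0.12 to 0.087 (no. 200). The cause was not tested.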
